A study of Mus musculus with 6 samples.

Results

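A set of 9 genes of matrix breakdown and its control was followed through mouse corneas with and without the miR-183/96/182 microRNA cluster. They are the metalloproteinases Mmp2, Mmp3, Mmp12, Mmp13 and Mmp14, the related secreted protease Adamts1, and the tissue inhibitors Timp1, Timp2 and Timp3. The 9 genes were taken by symbol from the 31053 genes of the deposited single-cell tables. All 6 libraries came from naive young adult mice that the labels give as female, on a mixed 129S2 and C57BL/6 background. The knockout (KO) carries the inactivated miR-183C allele, which the labels also write as miR-183CGT/GT, and the wild-type (WT) mice were littermates of the same age and sex. The groups, each a single library, were WT cornea and KO cornea at 2 months, WT cornea and KO cornea at 6 months, and WT CRIC and KO CRIC at 6 months. CRIC stands for cornea-resident immune cells, which were enriched on magnetic beads by the leukocyte protein CD45 after the corneas had been digested with collagenase A and DNase I. The labels do not say how many animals went into a library or whether the libraries came from separate animals. The p-values below rest on these libraries alone, with a spread drawn from all genes, and do not measure the spread between animals.

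Matrix metalloproteinases are zinc enzymes that cut collagens, proteoglycans and other matrix proteins, and most are secreted as inactive precursors. Mmp2, a gelatinase, is activated at the cell surface by the membrane-anchored Mmp14 in a complex that needs Timp2, so Timp2 is both an inhibitor and a partner in activation. Mmp3 (stromelysin-1), Mmp12 (macrophage elastase), Mmp13 (a collagenase) and Timp1 are known to be induced by inflammatory signals, and Timp3 is the inhibitor that binds to the matrix and also blocks ADAM and ADAMTS enzymes such as Adamts1. In the cornea the stroma is made and kept by keratocytes, the surface is covered by a layered epithelium, and macrophages and other leukocytes live in small numbers in both.

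The libraries were not alike in quality, and a pair of features of single libraries bears on the results. The files held 62313 cells after filtering, of which 40443 were called keratocyte-like, 15054 epithelial-like and 5284 immune from marker genes, with median depths of 1156 to 5495 UMIs (unique molecular identifiers, or counted molecules) per cell. KO cornea at 6 months was the shallowest of the 4 cornea libraries, with a median of 1862 UMIs. KO cornea at 2 months, labelled female, held 3077 UMIs of Y-linked genes in 2120 cells, whereas each other library held 0 to 2. A keratocyte-like cluster led by Saa3, Chil1 and Mmp3 held 2366 of the 8594 keratocyte-like cells of KO cornea at 6 months, 56 of 1211 in KO CRIC, and 0 to 32 elsewhere. Because most of that cluster came from 1 library, its cells and that library cannot be told apart. Pairs of libraries shared 2 to 32 cell barcodes. The 3 deleted microRNAs are not among the genes counted, so the genotype labels could not be checked from these counts.

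The deleted microRNAs have nearly the same seed, the stretch of bases 2 to 8 that pairs with target RNAs, shown here in capitals 5′ to 3′ as listed by RefSeq (GRCm38.p6, minus strand of chromosome 6) because the genotype removes them. The seeds of miR-96 and miR-182 differ in their last base.
mmu-miR-183-5p (chr6:30169711-30169732): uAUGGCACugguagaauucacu
mmu-miR-96-5p (chr6:30169506-30169528): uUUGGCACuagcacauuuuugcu
mmu-miR-182-5p (chr6:30165962-30165986): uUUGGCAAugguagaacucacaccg

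Only Mmp2 and Timp3 among the 9 genes held letters complementary to a whole seed in the longest annotated 3′ untranslated region, searched on the sense strand for GTGCCAT (miR-183), GTGCCAA (miR-96) and TTGCCAA (miR-182). At least 1 of these matches is present in 23.0% of 20988 mouse genes. Mmp2 held 1 match, for miR-96, and Timp3 held 4, of which 2 were for miR-183, 1 for miR-96 and 1 for miR-182. The sites are printed with the match in capitals (GRCm38.p6, plus strand), and a match is a description of the letters, not a shown target.
Mmp2, miR-96 (chr8:92853049-92853077): ggggtacaggtGTGCCAAggtggaaatca
Timp3, miR-96 (chr10:86346120-86346148): ggggatctctgGTGCCAAgccagaaagaa
Timp3, miR-182 (chr10:86346730-86346758): tggctggaagcTTGCCAActgtaagttgg
Timp3, miR-183 (chr10:86348335-86348363): tgctaaatcatGTGCCATgtgtaggctgt
Timp3, miR-183 (chr10:86349019-86349047): ctcacatcaagGTGCCATtcaggtagttg

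Keratocyte-like cells had the highest median level of Mmp2, Mmp3, Adamts1, Timp2 and Timp3 of the cell classes with at least 50 cells in a library. For Mmp2, Timp2 and Timp3 their range over the 6 libraries overlapped that of no other such class. For Mmp3 the lowest keratocyte level, 1.80 CPM in KO cornea at 2 months, was below the 2.45 CPM (3 UMIs) of basal epithelium in KO cornea at 6 months, and for Adamts1 the immune cells led by Psca reached 48.1 CPM in 1 library. Mmp14 was shared with the basal epithelium, and Mmp12 and Mmp13 had their highest medians in immune cells. In WT and KO cornea at 6 months, however, immune cells held 0 Mmp13 UMIs. In KO cornea at 6 months keratocytes held 97.9% of the Mmp12 UMIs. Levels are CPM, a gene's UMIs per 1e+06 UMIs of a class in a library, with exact Poisson 95% intervals that cover counting error only. Mmp, Adam, Adamts and Timp genes had been left out of the genes used for clustering, although genes that vary with them had not. The median of Mmp2 over the libraries was 458 CPM in keratocytes, and its level in all epithelial-like cells was 0.233 to 6.28 CPM. The median of Mmp14 was 83.2 CPM in keratocytes, 44.9 CPM in basal epithelium and 34.3 CPM in cycling epithelium. The ranges of keratocytes and basal epithelium overlapped for Mmp14. The median of Timp2 was 992 CPM in keratocytes, 168 CPM in macrophage-like cells and 86.8 CPM in superficial epithelium. Timp3 followed another order, with 59.8 CPM in keratocytes, 34.8 CPM in basal epithelium, 26.6 CPM in cycling epithelium and 4.84 CPM in wing cells. Schwann-like cells, 82 in all, held Timp3 at 816 to 1270 CPM in 4 libraries and at 0 UMIs in the KO cornea and KO CRIC libraries of 6 months, too few cells to compare.

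**Figure D1:**
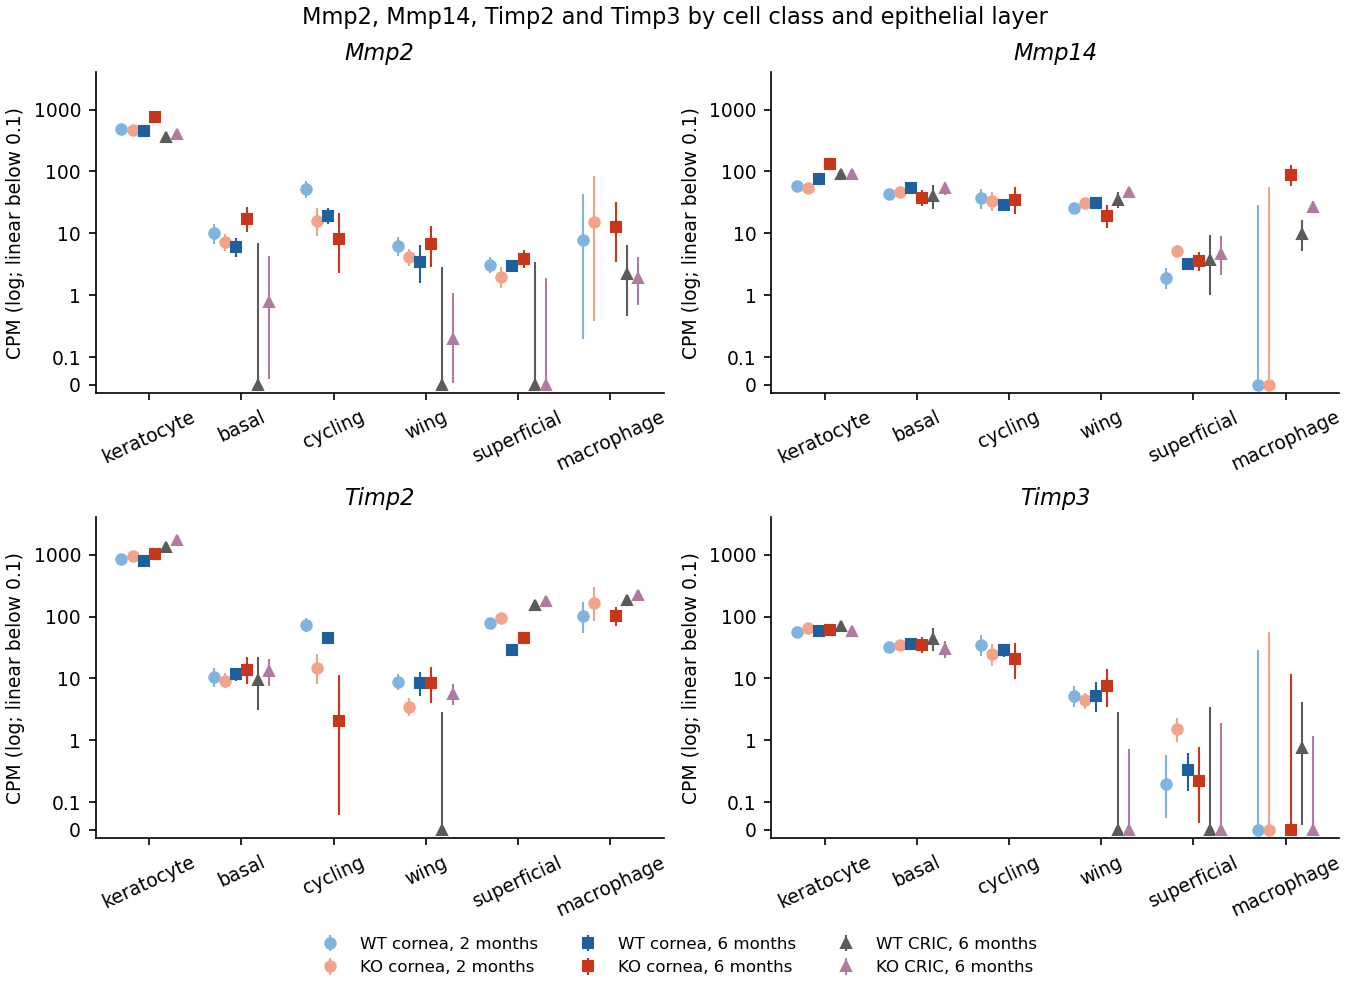
Levels of Mmp2, Mmp14, Timp2 and Timp3 (CPM, log axis that is linear below 0.1) in keratocyte-like cells, 4 epithelial layers and macrophage-like cells, 1 point per library with exact Poisson 95% intervals. Mmp2 sits far above every other class in keratocytes, Mmp14 and Timp3 extend into the basal and cycling epithelium, and Timp2 has a second, lower level in the superficial epithelium and macrophages.

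Among the surface activation trio, Mmp2 was at 487 and 471 CPM in keratocytes of WT and KO cornea at 2 months, 445 and 763 CPM at 6 months, and 364 and 398 CPM in WT and KO CRIC. Only KO cornea at 6 months stood above the rest. Mmp14, its activator, was at 58.8 and 54.4 CPM at 2 months, 76.3 and 133 CPM at 6 months, and 90.1 and 91.8 CPM in CRIC. The same library was highest, and both 2-month libraries were lowest. Timp2, at 836 and 958 CPM at 2 months, 785 and 1026 CPM at 6 months, and 1355 and 1736 CPM in CRIC, was higher in KO than in WT in each of the 3 pairs. Its highest values were those of the CD45-enriched libraries. In keratocytes thinned to 1000 UMIs each, Timp2 was detected in 52.4% to 79.2% of cells.

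Mmp3 and Timp1 were near the lower end of detection in 4 libraries and abundant in KO cornea at 6 months. Mmp3 was at 9.41 CPM (287 UMIs) and 1.80 CPM (56 UMIs) in WT and KO cornea at 2 months, 5.75 CPM (341 UMIs) and 594 CPM (9113 UMIs) at 6 months, and 12.2 CPM (24 UMIs) and 84.3 CPM (409 UMIs) in CRIC. Timp1 was at 2.72 and 1.16 CPM at 2 months, 0.793 and 173 CPM at 6 months, and 2.03 and 9.90 CPM in CRIC. For both genes KO was below WT at 2 months and above WT in both 6-month pairs. The KO over WT log2 ratio of Mmp3 was -2.39 (95% counting interval -2.83 to -1.97) at 2 months, 6.69 (6.53 to 6.85) at 6 months and 2.80 (2.20 to 3.45) in CRIC. For Timp1 the ratios were -1.23 (-1.84 to -0.65), 7.77 (7.35 to 8.22) and 2.29 (0.84 to 4.22). These intervals take UMIs as independent and do not include the spread between cells or between animals. The 5 highest keratocytes held 57.8% and 72.2% of the Timp1 UMIs of WT and KO cornea at 2 months. Of the Mmp3 UMIs they held 87.5% in WT CRIC and 64.8% in KO CRIC. In KO cornea at 6 months they held 9.69% for Mmp3 and 5.54% for Timp1.

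Mmp12, usually a macrophage gene, appeared in keratocytes of the same library. It was at 0.164 CPM (5 UMIs) and 0.0643 CPM (2 UMIs) in WT and KO cornea at 2 months, 0.0675 CPM (4 UMIs) and 196 CPM (3003 UMIs) at 6 months, and 1.01 CPM (2 UMIs) and 7.22 CPM (35 UMIs) in CRIC. In KO cornea at 6 months keratocytes held 97.9% of the Mmp12 UMIs and immune cells 1.04%, whereas in KO CRIC keratocytes held 8.73% and immune cells 89.0%. Mmp13 stayed at 0 to 8 UMIs per library in keratocytes, too few to compare. Adamts1 was at 29.7 and 23.1 CPM at 2 months, 53.8 and 69.5 CPM at 6 months, and 49.6 and 37.9 CPM in CRIC. Every 6-month library was above both 2-month libraries for Adamts1, and KO was below WT in 2 of the 3 pairs. Timp3 varied least, at 55.6 and 64.9 CPM at 2 months, 59.5 and 60.1 CPM at 6 months, and 69.9 and 58.2 CPM in CRIC.

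**Figure D2:**
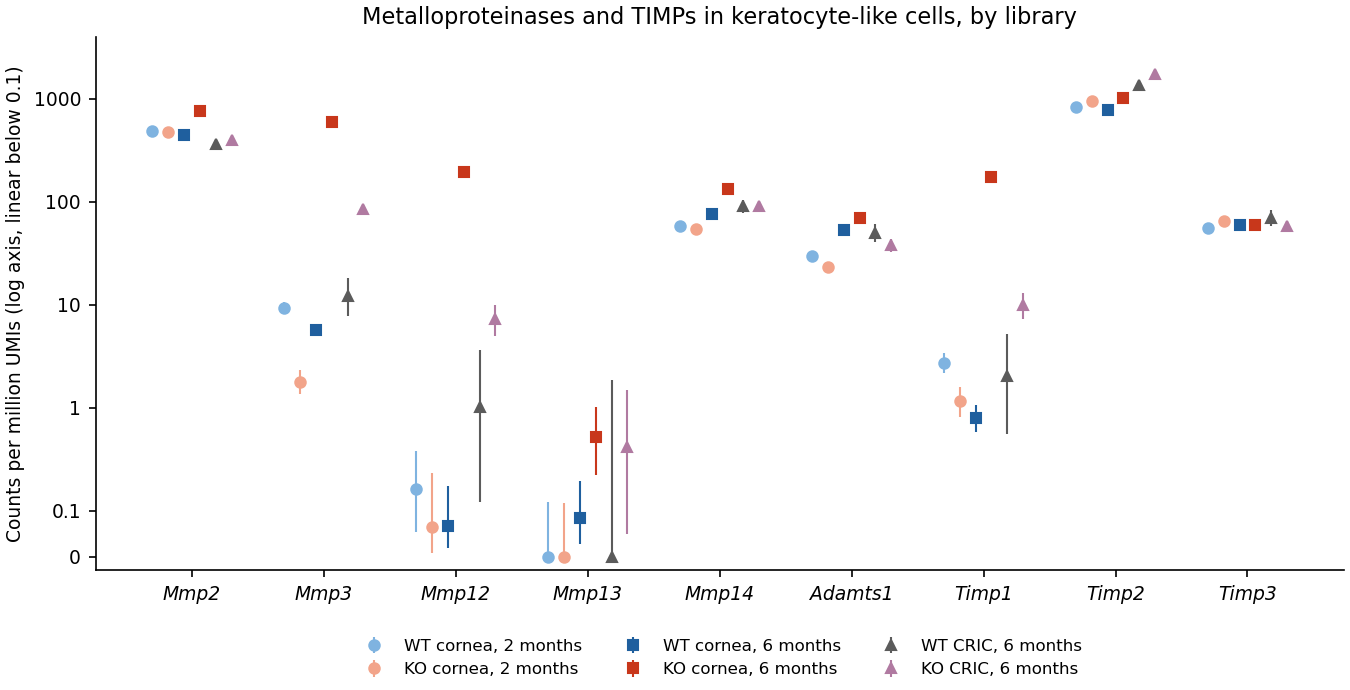
Level of each of the 9 genes in keratocyte-like cells (CPM, log axis that is linear below 0.1), 1 point per library, WT and KO side by side for cornea at 2 months, cornea at 6 months and CRIC, with exact Poisson 95% intervals. Mmp3, Mmp12 and Timp1 rise out of the low range in KO cornea at 6 months and less so in KO CRIC, while Timp3 stays within a narrow band.

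Few cells carried most of these UMIs. In KO cornea at 6 months the 9113 Mmp3 UMIs came from 852 keratocytes, 10.7 per positive cell and up to 199 in 1 cell. In KO cornea at 2 months the 56 Mmp3 UMIs came from 45 cells, 1.24 per positive cell. In the WT corneas Mmp3 was concentrated in a few cells, since the 5 highest held 48.8% of its UMIs at 2 months and 60.1% at 6 months. The 2652 Timp1 UMIs of KO cornea at 6 months came from 867 cells and the 3003 Mmp12 UMIs from 469. Mmp3 was detected in 9.91% of keratocytes of that library (8.37% after thinning) and in 0.815% of its epithelial-like cells (0.376% after thinning), taken as a class that should lack it. The median depths of these classes were 1734 and 4270.5 UMIs. Timp1 was detected in 10.1% of its keratocytes (7.58% thinned) against 0.479% of its epithelial-like cells (0.161% thinned). In the other libraries the thinned share of Mmp3 in keratocytes was 0.0784% to 1.81%. Among 6520 thinned keratocytes of KO cornea at 6 months, Timp1 was detected in 36.5% of cells with Mmp3 and 4.94% of cells without it. Mmp12 was detected in 18.5% of cells with Mmp3 and 3.63% without, whereas Timp3 was detected in 3.85% with and 5.88% without.

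The Saa3-led cluster held nearly all of this signal. Its share of the keratocyte UMIs of KO cornea at 6 months was 98.5% for Mmp3, 99.5% for Mmp12, 98.5% for Timp1 and 100% of the 8 Mmp13 UMIs. The share was 49.3% for Mmp2, 38.3% for Mmp14, 36.6% for Timp2, 27.0% for Adamts1 and 21.6% for Timp3, for a cluster with 27.5% of the cells. Within it Mmp3 reached 1887 CPM, Mmp12 628 CPM, Timp1 549 CPM, Mmp2 1211 CPM and Timp3 41.8 CPM. In the other keratocyte clusters of that library with at least 50 cells Timp1 was at 0 to 6.69 CPM and Mmp2 at 397 to 699 CPM. Mmp3 there was at 1.46 to 21.6 CPM, apart from a cluster of 90 cells at 188 CPM (31 UMIs). In KO CRIC the 56 cells of the Saa3-led cluster held 87.5% of the keratocyte Mmp3 UMIs, 91.4% of Mmp12 and 70.8% of Timp1. Mmp3 and Timp1 were among the 10 leading genes of this cluster, so their height in it is a description and not a test.

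**Figure D3:**
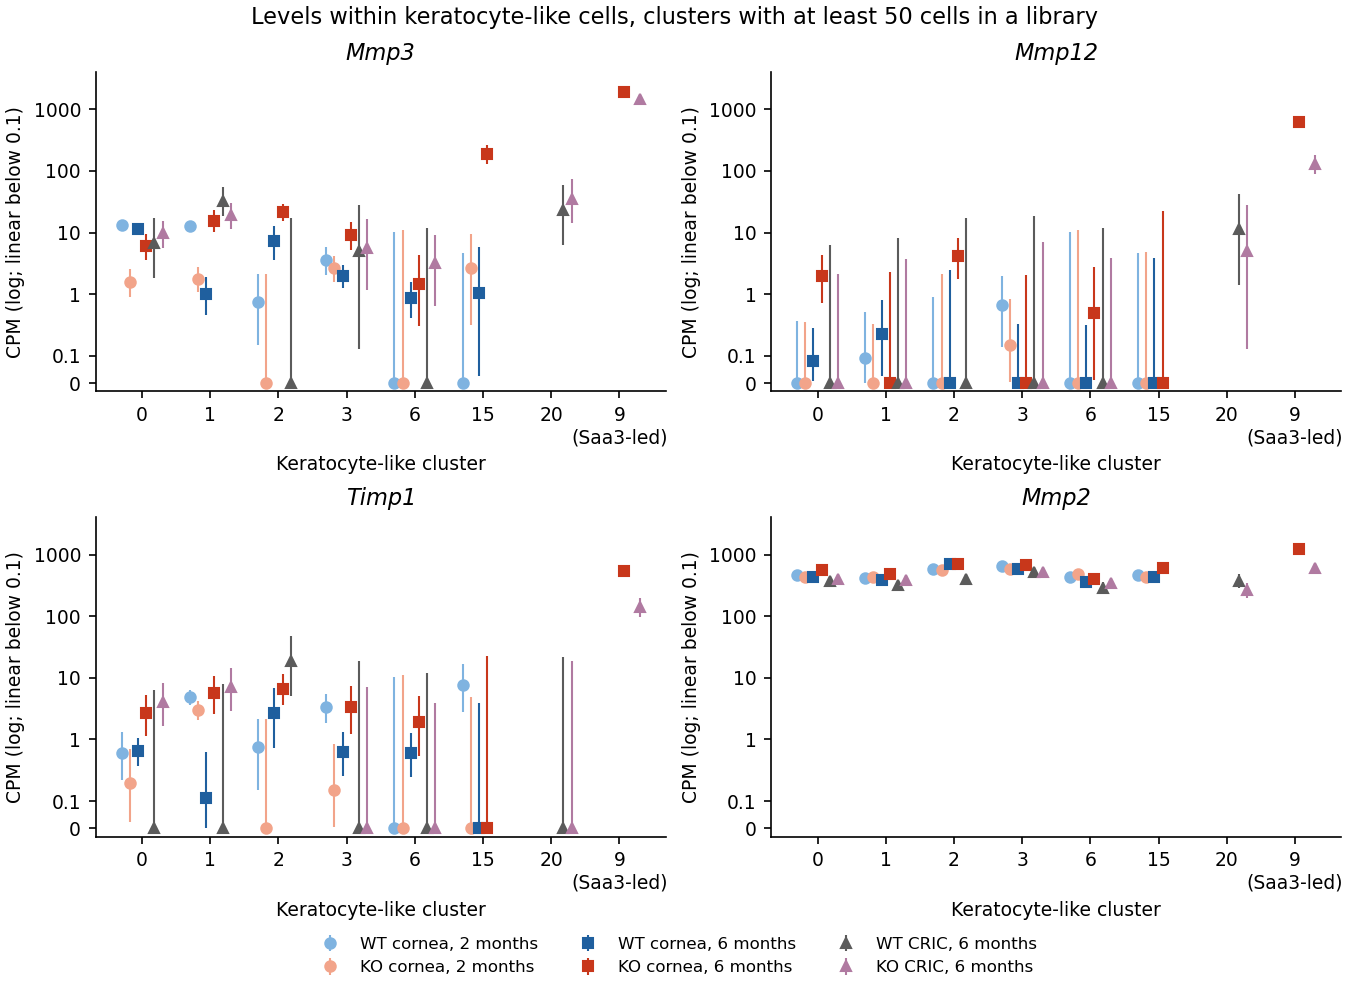
Levels of Mmp3, Mmp12, Timp1 and Mmp2 (CPM, log axis that is linear below 0.1) in the keratocyte-like clusters with at least 50 cells in a library, 1 point per library with exact Poisson 95% intervals. Mmp3, Mmp12 and Timp1 stand apart in the Saa3-led cluster at the right, where Mmp2 is higher by a smaller factor.

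The Saa3-led cells of KO cornea at 6 months carried keratocyte markers at 67560 CPM in sum, with 12 of 13 markers detected and Ptgds at 0. Macrophage markers summed to 46.0 CPM (9 of 13 detected) and immune markers to 6.31 CPM (6 of 10 detected), with Ptprc, Cd53, Rac2 and Cd48 at 0. In the other keratocytes of the library these sums were 81.8 and 14.3 CPM, and in its macrophage-like cells 58690 and 10740 CPM. Neutrophil markers were at 14.3 CPM and epithelial markers at 3966 CPM in the Saa3-led cells. In the free RNA of that library (barcodes with up to 100 UMIs) Mmp3 was at 283 CPM and Timp1 at 96.5 CPM, both below the cluster. Without the Saa3-led cells, a comparison chosen after seeing the data, keratocytes of KO cornea at 6 months held Mmp3 at 12.8 CPM, Mmp12 at 1.42 CPM, Timp1 at 3.88 CPM and Mmp2 at 561 CPM. The KO over WT log2 ratios at 6 months were then 1.15 (0.86 to 1.45) for Mmp3, 2.71 (2.02 to 3.40) for Timp1, 0.34 for Mmp2 and 0.64 for Mmp14. The part of free RNA in these remaining values was not tested. In CRIC without those cells the ratio of Mmp3 was -0.13 and that of Timp1 was 0.59.

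Mmp3, Mmp12 and Mmp13 lie in 1 gene cluster on chromosome 9, and Timp1 lies on chromosome X inside the span of Syn1, which is on the opposite strand. The 250 bases before the start of these genes are shown (RefSeq, GRCm38.p6, plus strand) because Mmp3, Mmp12 and Timp1 were high in the same cluster of cells, with the AP-1 motif in capitals. The motif was searched as TGACTCA or TGAGTCA, which covers both strands. It is present in 4.46% of 32851 mouse promoters of this length, and in the Mmp3, Mmp13 and second Mmp12 promoters. The table gives Mmp12 an earlier first promoter without the motif, and the one shown lies inside the gene. No AP-1 match was present in Timp1, Timp2, Timp3, Mmp14 or Adamts1. None was present in Saa3, Lcn2 or Chil1 either, other leading genes of the Saa3-led cluster. The letters of a STAT motif, TTCNNNGAA, present in 7.02% of promoters, were in none of the 8 members with an entry. Those of an ETS motif, AGGAAG or CTTCCT, were in 29.5% of promoters. They were in Mmp3, Mmp13, Mmp14, Timp1, Timp3, Lcn2 and the first Mmp12 promoter. A match describes the letters and not the binding of a factor.
Mmp3 (chr9:7445572-7445821): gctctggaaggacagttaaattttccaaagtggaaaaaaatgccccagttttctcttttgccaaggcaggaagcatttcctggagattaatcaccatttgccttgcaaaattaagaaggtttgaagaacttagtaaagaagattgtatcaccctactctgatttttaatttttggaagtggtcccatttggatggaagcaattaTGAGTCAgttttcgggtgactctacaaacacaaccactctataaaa
Mmp12, second promoter (chr9:7347124-7347373): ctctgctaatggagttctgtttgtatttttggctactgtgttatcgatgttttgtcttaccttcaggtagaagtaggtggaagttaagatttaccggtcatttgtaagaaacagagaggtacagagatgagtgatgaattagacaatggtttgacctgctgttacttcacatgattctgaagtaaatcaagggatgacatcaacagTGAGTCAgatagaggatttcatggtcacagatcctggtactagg
Mmp13 (chr9:7272264-7272513): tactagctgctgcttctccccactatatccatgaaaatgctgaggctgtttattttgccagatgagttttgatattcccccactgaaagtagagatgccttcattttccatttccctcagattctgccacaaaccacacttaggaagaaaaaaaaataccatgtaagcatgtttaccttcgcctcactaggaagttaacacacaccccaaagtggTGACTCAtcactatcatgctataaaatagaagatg
Timp1 (chrX:20869916-20870165): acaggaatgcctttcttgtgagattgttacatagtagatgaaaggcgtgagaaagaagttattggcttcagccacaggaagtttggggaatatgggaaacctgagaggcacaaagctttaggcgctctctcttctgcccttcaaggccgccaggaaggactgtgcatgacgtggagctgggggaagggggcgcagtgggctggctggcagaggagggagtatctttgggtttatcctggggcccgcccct

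KO was compared with WT in keratocytes over the 4 cornea libraries, with age as a covariate and 1 residual degree of freedom. Timp1 was higher in KO by 3.58 on the log2 scale (SE 0.435, adjusted p = 7.62e-13) and Mmp3 by 2.37 (SE 0.582, adjusted p = 0.0198) in edgeR's quasi-likelihood test. These were the 2 members called of the 7 that passed the filter on low counts, and 0.297% of the 14154 genes tested were called. Mmp2 (0.29, SE 0.33), Mmp14 (0.27, SE 0.259), Timp2 (0.21, SE 0.346), Timp3 (0.04, SE 0.249) and Adamts1 (-0.07, SE 0.242) did not pass, each with an adjusted p of 1 in the same edgeR test. The median log2 difference of the 7 members was 0.27 and that of all genes tested 0. Mmp12 and Mmp13 were below the filter. In the edgeR fit without it, where 0.32% of genes were called, Mmp12 was higher by 9.66 (SE 0.573, adjusted p = 5.68e-59). Its UMIs were 5 and 2 in WT and KO cornea at 2 months and 4 and 3003 at 6 months. The Mmp12 value thus rested on KO cornea at 6 months alone.

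Both calls rested on KO cornea at 6 months. Fits with a library left out held genotype alone, without the age term, so they change the covariate as well as the library. For Mmp3 and Timp1 the signs were opposite in the 2-month and 6-month pairs, and the difference between the pairs was not tested. The SE above draws on all genes and is smaller than the distance between the pairs. Without KO cornea at 6 months the edgeR log2 differences were -2.04 for Mmp3 and -0.54 for Timp1, and without the Saa3-led cells -0.60 and 0.58, neither called. Leaving out WT cornea at 2 months (5.52 and 6.6) or WT cornea at 6 months (4.79 and 4.80) also ended both calls, and leaving out KO cornea at 2 months ended that of Timp1 (6.55, adjusted p = 0.0772) but not that of Mmp3 (6.11, adjusted p = 0.0308). DESeq2 gave 2.09 for Mmp3 and 3.20 for Timp1 and called 0 genes, where edgeR called 42 and had 367 genes at an unadjusted p under 0.05. Adding the CRIC pair, in an edgeR fit of 6 libraries with each WT and KO pair as a block, also ended both calls, at 2.68 for Mmp3 and 3.22 for Timp1. Without the Y-positive cells of KO cornea at 2 months edgeR gave 2.48 (adjusted p = 0.004) and 3.62 (adjusted p = 1.63e-13).

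**Figure D4:**
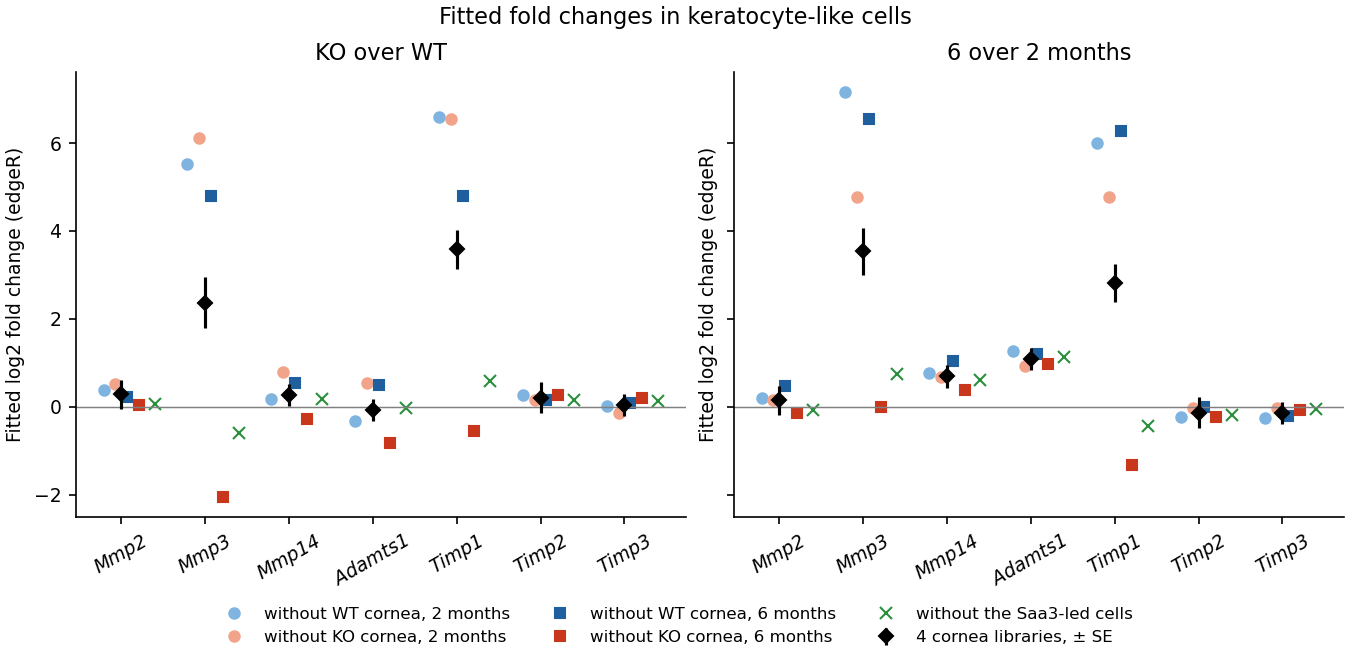
Log2 differences of the 7 tested members in keratocyte-like cells over the 4 cornea libraries, KO over WT and 6 over 2 months. Diamonds are the edgeR fits with 1 SE, and green crosses the fit without the Saa3-led cells. Circles and squares are the fits that leave out 1 library each, in the colour of that library. Mmp3 and Timp1 spread from below 0 to above 6 as libraries are left out, and Adamts1 stays above 0 for age in every fit.

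Age was compared over the same 4 libraries, 6 over 2 months with genotype as a covariate, which the fits with a library left out did not hold. Adamts1 was higher at 6 months by 1.09 on the log2 scale (SE 0.244, adjusted p = 0.0013), Mmp3 by 3.54 (SE 0.538, adjusted p = 3.16e-08) and Timp1 by 2.82 (SE 0.434, adjusted p = 5.20e-08) in edgeR's quasi-likelihood test. These were 3 of the 7 members tested, and 1.55% of all genes tested were called. The ratio of Adamts1 was of 1 sign in both genotypes, 0.86 in WT and 1.59 in KO on the log2 scale. It was called by DESeq2 (1.10, adjusted p = 0.0144; 0.46% of genes called), without KO cornea at 6 months (0.98, adjusted p = 2.38e-08) and without the Saa3-led cells (1.13, adjusted p = 0.000267), but edgeR no longer called it without WT cornea at 2 months (1.26, adjusted p = 0.171) or without KO cornea at 2 months (0.92, adjusted p = 1). For Mmp3 the age ratio was -0.71 in WT and 8.37 in KO, and for Timp1 -1.78 and 7.22. Neither was called by edgeR without KO cornea at 6 months (-0.01, adjusted p = 0.997, and -1.33, adjusted p = 0.0569), without the Saa3-led cells (0.74 and -0.43) or by DESeq2 (3.71 and 2.61). Mmp14 was higher by 0.70 (SE 0.26, adjusted p = 0.239), which did not pass. It was called without KO cornea at 6 months (0.39, edgeR adjusted p = 0.0103) and without WT cornea at 6 months (1.04, edgeR adjusted p = 8.27e-09). Mmp2 (0.15), Timp2 (-0.13) and Timp3 (-0.14) were not called.

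In the epithelium the members divided by layer. Mmp14 was at 37.6 to 54.6 CPM in basal cells, 19.1 to 46.8 CPM in wing cells and 1.88 to 5.24 CPM in superficial cells over the 6 libraries. Timp3 was likewise basal, at 29.8 to 43.7 CPM, and at 0 to 1.53 CPM in superficial cells. Timp2 ran the other way. It was at 78.5 and 95 CPM in superficial cells of WT and KO cornea at 2 months, 29.3 and 44.3 CPM at 6 months, and 156 and 180 CPM in CRIC, against 9.27 to 13.9 CPM in basal cells. The superficial level of Timp2 was thus higher at 2 than at 6 months in cornea, and KO was above WT in each pair.

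Epithelial counts were set beside free RNA by the ratio of a gene's counts to those of Mmp2, which 1 source would hold constant. For Mmp14 the ratio was 2.19 to 9.24 in basal cells of the 4 cornea libraries and 0.0672 to 0.107 in their free RNA. For Timp2 in superficial cells it was 9.72 to 48.3 against 1.04 to 1.60 in free RNA, whereas in basal cells it was 0.81 to 1.97. In basal cells of KO CRIC the Timp2 ratio was 17.0 against 4.7 in free RNA, from 17 Timp2 UMIs and 1 Mmp2 UMI. Over the 6 libraries basal cells held Mmp2 at 0 to 17.2 CPM and Timp2 at 9.27 to 13.9 CPM. The part of free RNA in the epithelial counts was not tested. In the epithelium of KO cornea at 6 months Mmp3, Mmp12 and Timp1 had 17, 6 and 10 UMIs, with 831, 274 and 283 in free RNA.

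KO against WT over the 4 cornea libraries called 0 of the 5 members that passed the filter in epithelium, where edgeR called 0.313% of 12458 genes, DESeq2 called 1 gene (0.00803% of those it tested) and 431 genes had an unadjusted edgeR p under 0.05. The log2 differences were 0.06 for Mmp14, 0.07 for Timp2, -0.05 for Timp3, -0.20 for Mmp2 and -0.59 for Adamts1. For Mmp14 the pairs pointed in opposite directions, 0.71 at 2 months and -0.58 at 6 months, as they did for Timp3 (0.53 and -0.61) and Timp2 (-0.26 and 0.45). Age called 0 of the 5 members, with 7.19% of the genes called.

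Immune cells held Mmp12 and Mmp13 in WT and KO, and Mmp14 and Timp1 mainly in the 6-month KO libraries. Mmp12 was at 59.4 and 157 CPM in WT and KO cornea at 2 months (13 and 34 UMIs), 130 and 85.1 CPM at 6 months (47 and 32 UMIs), and 74.7 and 75.6 CPM in CRIC (118 and 357 UMIs). The KO over WT log2 ratio of Mmp12 was 1.40 (0.44 to 2.45) at 2 months, -0.61 (-1.31 to 0.07) at 6 months and 0.02 (-0.29 to 0.33) in CRIC. The intervals at 6 months and in CRIC include 0. Timp1 had 0 UMIs in all 3 WT libraries and in KO cornea at 2 months, 33 UMIs (87.8 CPM) in KO cornea at 6 months and 40 UMIs (8.48 CPM) in KO CRIC. With the WT count of 0 set to a floor of 3 counts, the KO over WT log2 ratio of Timp1 was 3.40 at 6 months and 2.16 in CRIC. The lower 95% counting limits were 3.02 and 1.79. Mmp14 was at 0 UMIs in both 2-month libraries, 8.29 and 82.5 CPM in WT and KO cornea at 6 months, and 9.5 and 26.9 CPM in CRIC. Its KO over WT log2 ratio was 3.31 (1.63 to 5.67) at 6 months and 1.5 (0.73 to 2.38) in CRIC. Mmp13, a collagenase, was lower in KO CRIC than in WT CRIC, at 6.36 against 18.4 CPM, a log2 ratio of -1.53 (-2.32 to -0.74). Timp2 was at 60.8 to 201 CPM, and KO was above WT in each pair, but each counting interval included 0. The log2 ratios were 0.74 (-0.18 to 1.70) at 2 months, 0.69 (-0.10 to 1.53) at 6 months and 0.13 (-0.07 to 0.32) in CRIC.

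Free RNA in KO cornea at 6 months held Timp1 at 96.5 CPM, close to the immune level. That free RNA held 831 Mmp3 and 283 Timp1 UMIs, and the immune cells held 1 Mmp3 and 33 Timp1 UMIs. In KO CRIC free RNA held 16 UMIs of each gene, and the immune cells held 0 of Mmp3 and 40 of Timp1. Mmp12 in the immune cells of KO cornea at 6 months was also near its free RNA level of 93.4 CPM, and 5 cells held 93.8% of its UMIs. No doublet caller was run, and the part of free RNA or of doublets in these immune counts was not tested. For Mmp14 in macrophage-like cells the ratio to Mmp2 was 7.0 in KO cornea at 6 months and 13.8 in KO CRIC, against 0.0672 and 0.292 in free RNA. For Timp2 it was 8.0 and 117 against 1.04 and 4.7. The macrophage ratios divide by only 4 and 6 Mmp2 UMIs, so their size is uncertain. Libraries also differed in the kinds of immune cell they held. An immune cluster led by the epithelial gene Psca made up 37.1%, 64.1% and 73.3% of immune cells in WT and KO cornea at 2 months and WT cornea at 6 months, but 7.01% in KO cornea at 6 months and 1.32% to 2.95% in CRIC. The part of this makeup in the differences was not tested.

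Within the immune cells, most Timp1 UMIs lay in a macrophage-like subcluster led by Arg1, Fxyd2 and Pdpn, with 160 cells in KO cornea at 6 months, 335 in KO CRIC, 5 in WT CRIC and 1 in WT cornea at 6 months. Timp1 was at 136 CPM (29 UMIs) there in KO cornea at 6 months and at 37.4 CPM (26 UMIs) in KO CRIC, and Mmp14 at 117 CPM (25 UMIs) and 37.4 CPM (26 UMIs). Timp1 is among the leading genes of this subcluster, so its height there is a description. It also had 3 and 6 UMIs in a related subcluster led by Arg1, Fxyd2 and Dqx1, and 7 UMIs in the Ccl17-led cells of KO CRIC. Mmp14 was spread more widely in KO CRIC, at 44.8 CPM (8 UMIs) in a subcluster led by Cxcl9, 32.1 CPM (32 UMIs) in the Ccl17-led cells and 32.0 CPM (28 UMIs) in the Dqx1 subcluster. Mmp12 was highest in an unnamed subcluster led by Ccl17 and Cd209a, at 440 CPM (72 UMIs) in WT CRIC and 162 CPM (162 UMIs) in KO CRIC. Mmp12 is itself among the leading genes of that subcluster, so its height there is a description. The membership of that subcluster changed with the seed of the clustering, from 140 WT CRIC and 442 KO CRIC cells to 72 and 69 cells. With the other seed, an alternative chosen after seeing the data, Mmp12 was at 546 CPM (406 to 720) in WT CRIC and 385 CPM (301 to 486) in KO CRIC, and the intervals overlapped. Mmp13 had 17 and 12 UMIs in the subcluster with the first seed and 0 in both libraries with the other, so no comparison of the genotypes was made within it.

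**Figure D5:**
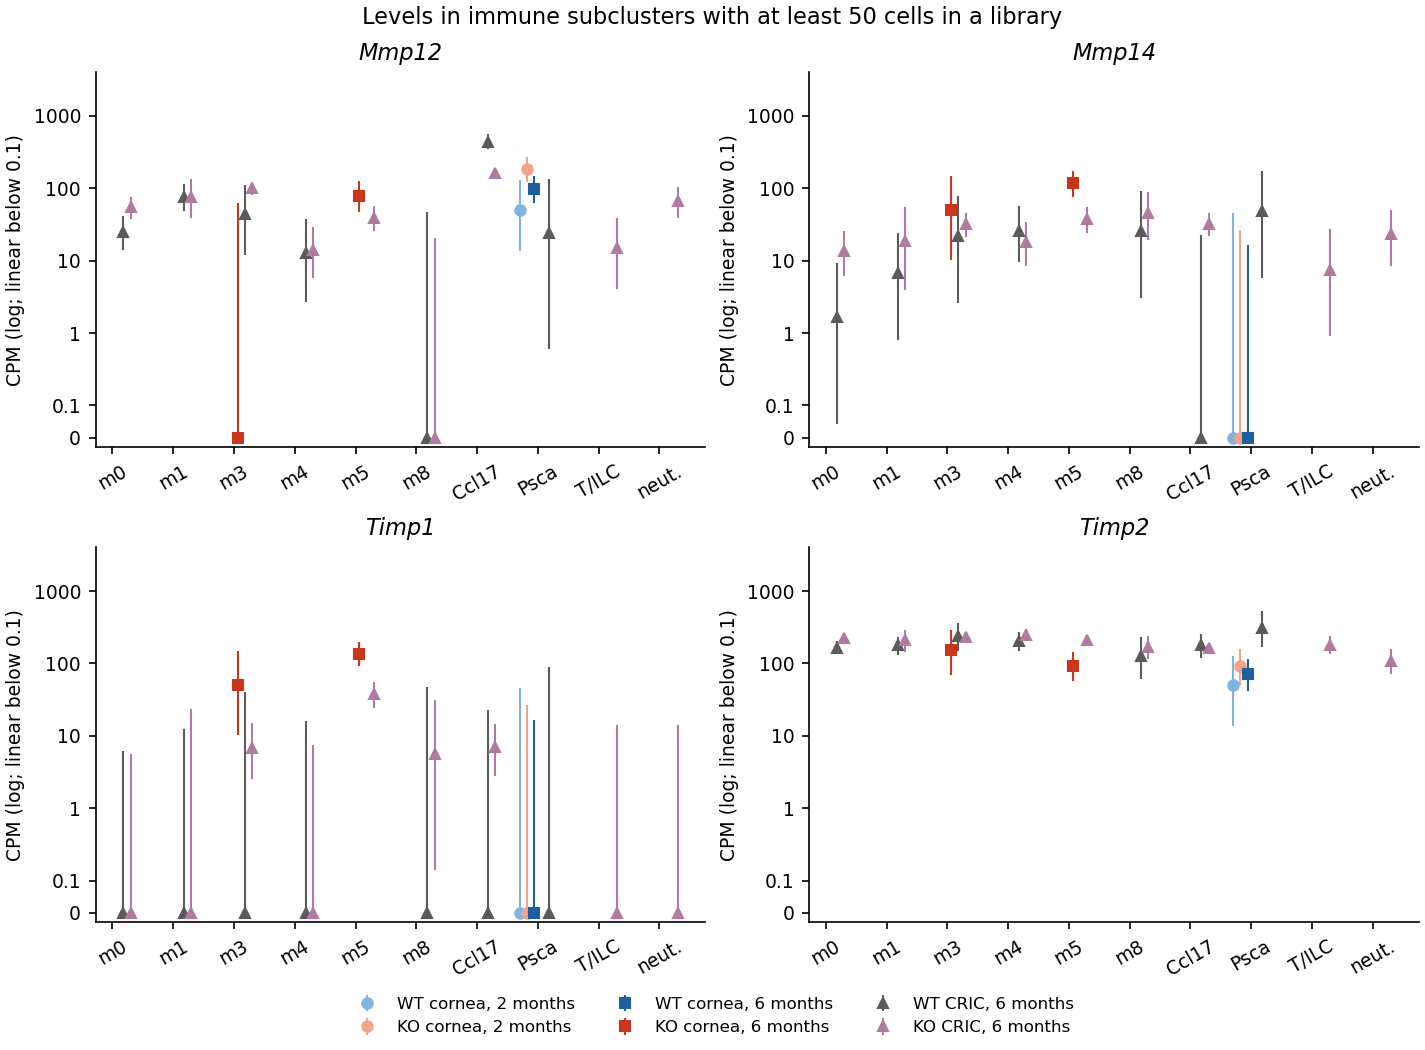
Levels of Mmp12, Mmp14, Timp1 and Timp2 (CPM, log axis that is linear below 0.1) in immune subclusters, 1 point per library with exact Poisson 95% intervals; m0 to m8 are macrophage-like subclusters. Timp1 has UMIs only in KO libraries among the subclusters plotted, Mmp12 peaks in the Ccl17-led cells and Timp2 is present throughout.

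Over all 6 libraries, with the 3 pairs as blocks, edgeR's test of KO against WT in immune cells called neither of the 2 members above the filter, Mmp12 (0.04, SE 0.317) and Timp2 (0.33, SE 0.291), while 0.614% of 4400 genes were called. In the edgeR fit without a filter, where 0.298% of genes were called, Timp1 was higher in KO by 7.62 (SE 1.49, adjusted p = 0.00029) and Mmp14 by 2.04 (adjusted p = 0.162). The fitted value of Timp1 depends on the prior count, because 4 of the 6 libraries were at 0.

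The other genes of the pathway were taken from lists of further Mmp genes, ADAM and ADAMTS proteases, inhibitors and clearance receptors, activators and inducers, matrix substrates, and cathepsins. In keratocytes KO against WT called 0 of 7 further Mmp genes, 0 of 15 ADAM and ADAMTS genes, 0 of 13 activators, 0 of 6 cathepsins, 1 of 9 inhibitors and 3 of 22 substrates, all higher, beside 0.205% of all genes called higher. The inhibitor was Slpi, a secreted inhibitor of neutrophil serine proteases (1.98, SE 0.362, adjusted p = 4.45e-05 in edgeR). The substrates were the laminin chains Lama4 (2.16) and Lamb1 (2.18) and the proteoglycan Vcan (1.64). In keratocytes Lama4 was at 1.51, 1.96 and 1.62 CPM in the first 3 cornea libraries and at 21.4 CPM in KO cornea at 6 months, and Slpi at 4.89 to 10.3 CPM and 202 CPM. None of these 4 was called by edgeR without KO cornea at 6 months, without the Saa3-led cells or by DESeq2.

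With age, edgeR called 2 of 7 further Mmp genes in keratocytes, both higher at 6 months: Mmp9, a gelatinase (1.33, SE 0.28, adjusted p = 0.000446), and Mmp19 (0.99, SE 0.232, adjusted p = 0.00293), beside 0.812% of all genes called higher. Mmp9 was at 2.59 and 5.21 CPM in WT and KO cornea at 2 months, and the 6-month values were 8.47 and 12.1 CPM, without overlap of the ages. The aggrecan-cutting Adamts4 (2.43), Adamts5 (0.81) and Adamts15 (2.57) were also higher, 3 of 15 genes of their list. Of 13 activators 4 were higher, namely Il1r1 (2.20), Jun (1.46), Osmr (1.39) and Plat (0.83), which encode the interleukin-1 receptor, an AP-1 subunit, the oncostatin M receptor and tissue plasminogen activator. Slpi (2.22) was the 1 of 9 inhibitors called. Of 22 substrates Lama4, Lamb1 and Vcan were higher and Spp1 lower (-1.51). Of these 14 genes, 6 were called without the Saa3-led cells (Il1r1, Jun, Mmp19, Mmp9, Osmr and Spp1) and 3 by DESeq2 (Il1r1, Jun and Osmr). The list medians ranged from -0.19 for substrates to 0.42 for activators, beside -0.02 for all genes tested.

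In immune cells 0 of the further Mmp genes passed the filter. Mmp9, a protease of neutrophils, had 0 UMIs in all 3 WT libraries and in KO cornea at 2 months, 4 UMIs in KO cornea at 6 months and 99 UMIs in KO CRIC, of which 96 lay in neutrophil-like cells. Neutrophil-like cells numbered 0 and 0 in WT and KO cornea at 2 months, 2 and 15 at 6 months, and 10 and 146 in CRIC. Mmp8 had 0 UMIs in the same 4 libraries, 1 UMI in KO cornea at 6 months and 43 UMIs in KO CRIC, of which 38 lay in a macrophage-like subcluster led by Xpnpep3 and 0 in neutrophil-like cells. The matrix proteins Fn1 (3.82, SE 0.407, adjusted p = 8.49e-08) and Spp1 (2.91, SE 0.311, adjusted p = 8.49e-08) were higher in KO in edgeR's test, 2 of 11 substrates, beside 0.568% of all genes called higher. Fn1 was at 9.14, 24.9 and 13.3 CPM in the WT libraries and at 13.9, 750 and 157 CPM in their KO partners. Both were also called with any library left out, without the Psca-led cells and in DESeq2, which called 0.166% of genes. The membrane protease Adam8 (2.83, adjusted p = 0.00742 in edgeR) and the proprotein convertase Furin (1.47, adjusted p = 0.0211 in edgeR), which activates Mmp14, were also higher. Both lost the call without KO cornea at 6 months, without KO CRIC, without WT CRIC, without WT cornea at 6 months, without the Psca-led cells and in DESeq2. In epithelium 1 gene of the lists was called for genotype, the proteoglycan Bgn, lower in KO (-0.90, edgeR adjusted p = 0.0443), and it was not called by DESeq2, with scaling by library size, over 6 libraries, without the Y-positive cells or with any library left out. For age in epithelium edgeR called 9 of 61 genes of the lists, beside 7.19% of all genes, among them the membrane metalloproteinase Mmp15, lower at 6 months (-2.01, edgeR adjusted p = 0.00104), and DESeq2, which called 4.36% of genes, called 2 of the 9. Of these 9, edgeR called 2 with scaling by library size, 4 without the Y-positive cells of KO cornea at 2 months, and 1 without KO cornea at 2 months.

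The genes with the most similar profile over 41 combinations of library and cell class were ranked by Pearson's r on log2 CPM, as a description, since the points share libraries and depth. Mmp2 was nearest to Serping1 (0.941), Apod (0.933) and Lum (0.932). Mmp3 was nearest to Chil1 (0.859), Pgm5 (0.821) and Col23a1 (0.809), and Timp1 to Saa3 (0.830), Mmp3 (0.730) and Chil1 (0.666). Timp3 was nearest to Ltbp4 (0.958), Cdon (0.956) and Fjx1 (0.954), and Adamts1 to Hmcn1 (0.923) and Erg (0.922). Timp2 (0.871, with Hgsnat) and Mmp14 (0.886, with Gid4) had no neighbour above 0.9.

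On GRCm38 with the GENCODE M21 annotation, Mmp2 (ENSMUSG00000031740) lies at chr8:92827291-92853420 on the plus strand and Mmp14 at chr14:54431612-54445364 on the plus strand. Mmp3 lies at chr9:7445822-7455975, Mmp12 at chr9:7344381-7369499 and Mmp13 at chr9:7272514-7283331, all on the plus strand. Timp1 lies at chrX:20870166-20874735 on the plus strand, Timp2 at chr11:118301069-118355740 on the minus strand, Timp3 at chr10:86300372-86349506 on the plus strand and Adamts1 at chr16:85793827-85803113 on the minus strand. Timp1 and Timp3 lie inside Syn1 and Syn3, and Mmp12 overlaps Mmp1b, each on the opposite strand. In keratocytes Syn1 had at most 2 UMIs and Mmp1b at most 5 UMIs in a library, and Syn3 was at 5.36 to 10.1 CPM.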

How the data were processed

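The 6 libraries were made with the 10x single-cell 3′ protocol, per the labels' protocols, in a kit version the labels give as v2. The authors deposited UMI counts per gene and barcode for each library; the file headers name Cell Ranger 6.0.1 and the submitters' processing notes name Cell Ranger 2.1.1 and the build mm10, so which version made the counts is not settled. Counts carry no normalization. Whether counting included introns is not given in the sources used here.

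Barcodes with at least 500 UMIs, at least 250 genes and at most 20% mitochondrial UMIs were kept as cells where their profile differed from free RNA (barcodes with up to 100 UMIs; 1000 draws, adjusted p of 0.01). Cells were clustered (Leiden, leidenalg 0.10.2, resolution 1) on 30 principal components of 2000 variable genes without Mmp, Adam, Adamts and Timp genes, and named "keratocyte-like" and so on from marker lists. No doublet caller was run. Immune subclusters were kept out as mixed (95 cells) where their summed CPM of keratocyte or epithelial markers reached 20% of a reference. The reference was the median of that sum over the clusters of the marker's class, and the limit was set after seeing the data. The 1355 unnamed cells were also kept out. Total counts per library ran from 9827933 to 117613142 UMIs.

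For each cell class the counts of a library were added up and tested with edgeR 4.0.16 (quasi-likelihood test, TMM, filterByExpr, Benjamini-Hochberg over all genes tested, threshold 0.05) in R 4.3.3, with DESeq2 1.42.0 as an alternative; the code was tested on simulated data. In the cornea fits the 1 residual degree of freedom is the difference of the genotype effect between the ages, and the spread is shared over genes. Poisson and binomial intervals are exact at 95%, and the floor for a count of 0 was 3 counts. Counting intervals cover counting error only. Shares of cells were also computed after thinning cells to 1000 UMIs. Other settings were another seed, scaling and filter, a minimum of 1000 UMIs, each library left out, the Y-positive cells left out, and, chosen after seeing the data, the Saa3-led keratocytes or Psca-led immune cells left out. All 9 members were named in every comparison, and genes of the pathway lists were named where called. Members and lists were chosen with earlier results of these data known. Profile likeness used genes with a mean of at least 10 CPM in classes with at least 50 cells, as log2(CPM + 1).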

Additional observations from a re-analysis of the deposited data

Results flagged for a closer look

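For 8 combinations of gene and cell class, the KO over WT log2 ratio pointed one way in cornea at 2 months and the other way at 6 months; with 1 library per group the difference between the ages was not tested, and KO cornea at 2 months is the library with Y-linked UMIs. In keratocyte-like cells the ratios at 2 and 6 months were -2.39 and 6.69 for Mmp3, -1.23 and 7.77 for Timp1, -0.05 and 0.78 for Mmp2, -0.11 and 0.80 for Mmp14, and -0.36 and 0.37 for Adamts1. In epithelial-like cells they were 0.71 and -0.58 for Mmp14, -0.26 and 0.45 for Timp2, and 0.53 and -0.61 for Timp3. Without the Saa3-led keratocytes the 6-month ratios of Mmp3 (1.15), Timp1 (2.71), Mmp2 (0.34), Mmp14 (0.64) and Adamts1 (0.45) were still above 0. At 2 months the 5 highest keratocytes held 57.8% (WT) and 72.2% (KO) of the Timp1 UMIs. For Mmp3 they held 48.8% (WT) and 26.8% (KO).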

How the results depend on the processing

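The count of genes called for genotype in keratocytes, 42, became 66 without a filter, 0 with DESeq2, 0 with 6 libraries and the pair as a block, 14 without the Saa3-led cells, and 0 to 10 with a library left out. In epithelium 39 became 1 (library size only), 1 (DESeq2), 20 (other seed), 2 (without Y-positive cells), 6 (block) and 1 to 3 with a library left out. In immune cells 27 became 62 (library size only), 46 (no filter), 7 (DESeq2), 5 (at least 1000 UMIs), 9 (macrophage-like cells only), 5 (without Psca-led cells) and 10 to 116 with a library left out. For age in keratocytes 219 became 60 (DESeq2), 334 (at least 1000 UMIs) and 99 to 3497 with a library left out, and in epithelium 896 became 109 (library size only), 143 (DESeq2), 239 (without Y-positive cells) and 85 to 895. The cause was not tested. Of 203 member fits under other settings 13 reversed, 182 kept direction and call and 8 lost the call; of 108 with a library left out, where the cornea fits held the tested factor alone, the numbers were 24, 74 and 7, and 3 gained it. The reversed genotype values in keratocytes were 0.01 for Adamts1 (library size only), -0.01 for Timp3 (block) and -0.60 for Mmp3 (without Saa3-led cells); Timp2 in epithelium was -0.10 (block), and Mmp12 in immune cells -0.19 (at least 1000 UMIs) and -0.44 (without Psca-led cells). For age, keratocyte Timp2 was 0.00 (library size only), Mmp2 -0.07 and Timp1 -0.43 (without Saa3-led cells), and epithelial Mmp2 0.00, Adamts1 -0.03 and Timp3 -0.25 (library size only) and Mmp14 0.00 (without Y-positive cells). With a library left out, keratocyte genotype values ran from -2.04 to 6.11 (Mmp3), -0.28 to 0.79 (Mmp14), -0.82 to 0.54 (Adamts1), -0.54 to 6.6 (Timp1) and -0.13 to 0.20 (Timp3). Epithelial ones ran from -0.81 to 0.45 (Mmp2), -0.17 to 0.24 (Mmp14), -1.07 to 0.07 (Adamts1), -0.33 to 0.50 (Timp2) and -0.32 to 0.18 (Timp3), and immune Mmp12 from -0.37 to 0.42. For age, keratocyte values ran from -0.15 to 0.47 (Mmp2), -0.01 to 7.15 (Mmp3) and -1.33 to 6.28 (Timp1), and epithelial ones from -0.22 to 0.14 (Mmp14), -0.08 to 1.08 (Adamts1) and -0.59 to 0.16 (Timp2). Scaling by library size moved the share of calls that were higher from 52.5% to 72.1% for age in keratocytes and from 59.2% to 31.2% in epithelium, with the median of all genes moved by 0.13 and -0.49, and the single genotype call in epithelium was higher. Of 108 levels 103 moved by less than their spread with another seed or cell minimum, and thinning moved 43 of 54 shares of cells. No fit with a replicate block was possible because the labels give no replicate numbers; the pair used as a block is that of age and enrichment. A group of 1 library, 191 to 328 immune cells in cornea and few UMIs of Mmp13 limit what can be compared.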
